A study of Homo sapiens with 6 samples.

Results

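The RNA described here came from 41 repeat entries of the human genome that belong, by name, to old LINE and SINE families: L2, L3, L4, L5, CR1, MIR, AmnSINE and the numbered X LINE entries. They were taken by name alone, from the entries of a raw repeat count table whose names start with L2, L3, L4, L5, CR1, RTE, MIR or AmnSINE, or with X, a number, an optional letter and LINE, and that also stand in the table of CPM, counts scaled to a common library total. Of the 15600 entries counted, 52 matched; 41 of these were among the 7383 entries of the CPM table, and the other 11 had no count in any library. No entry started with RTE. The members fall into 8 L2, 5 MIR, 11 L3 and CR1, 4 L4 and L5, 2 AmnSINE and 11 X LINE entries, and 12 carry a suffix (Crp, AMi or Croc) that names a crocodilian source of the consensus.

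Cells of H9, a human embryonic stem cell line, were sequenced as total RNA in 6 libraries, 2 for each of 3 groups. RSeT+DT cells were kept in RSeT, a commercial medium for a naive-like state, with 10 nM DZNep and 5 nM TSA for 48 hours. DZNep blocks S-adenosylhomocysteine hydrolase and so lowers methylation by EZH2 and other methyltransferases, and TSA inhibits histone deacetylases. RSeT cells had the same medium without the drugs, and primed cells were grown in mTeSR; all groups are the same wild-type line, and no vehicle-treated group was analysed here. The study's title sets the data in work on LINE1, PRC2 and repression of an 8-cell-like state. Whether the 2 libraries of a group are separate cultures is not given, and the spread behind each p-value is that between such libraries, possibly a technical one.

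LINEs are retrotransposons that encode their own reverse transcriptase, and SINEs are short elements that borrow it. L2 and its SINE partner MIR, a tRNA-derived element with a conserved core, spread in early mammals and are long inactive in humans. L3 and CR1 belong to the CR1 clade, L4 and L5 are placed with the RTE clade, and AmnSINE elements date from early amniotes, where some copies became enhancers. The human copies are diverged, truncated fragments that lie in large part in introns and between genes, so that their reads can come in part from host transcripts. Each value here is a sum over all copies of an entry, and in such bulk sums fewer cells with a transcript and less of it per cell cannot be told apart. CPM values were not divided by length or copy number, so they compare an entry between libraries and not one entry with another. The tables used here hold no sequence and no clade for the X LINE entries.

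Counts assigned to repeats summed to between 11520770 and 38312112 per library, RSeT replicate 1 being the deepest. The repeats used to check the labelled states differed between the groups as follows. HERVK-int, the internal part of HERV-K, stood at 16529.6 and 17480.1 CPM in RSeT+DT, 20069.5 and 19229 CPM in RSeT and 336 and 344 CPM in primed libraries, and LTR5_Hs followed it with 4247 and 3998, 4019 and 3974, and 327 and 365 CPM. Of the repeats tied to the 8-cell stage, MLT2A2 had 400.5 and 394 CPM, 439.5 and 449 CPM, and 351 and 357 CPM. HERVL-int had 535 and 559, 748 and 775, and 634 and 664 CPM. MLT2A1 had 196 and 198, 252 and 267, and 243 and 255 CPM in the same order of groups, so that RSeT+DT stood lowest. HERVH-int, the internal part of the endogenous retrovirus HERV-H, took 11.7 ± 0.27%, 7.45 ± 0.15% and 2.52 ± 0.19% of all repeat counts in RSeT+DT, RSeT and primed cells (SD, n = 2 each), alpha satellite (ALR/Alpha) 0.814 ± 0.041%, 3.245 ± 0.014% and 0.0536 ± 0.0018%, and 7SLRNA 20.2 ± 1.5%, 14.4 ± 0.44% and 21.3 ± 1.1%. These few entries change the total that every CPM is divided by, and their part in the results below was not tested.

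Together the 41 members took 8.43% and 8.74% of all repeat counts in the RSeT+DT libraries, 10.8% and 11.1% in RSeT and 11.8% and 12.45% in primed libraries. The order was the same for their share of interspersed repeat counts, with 13.9 ± 0.089% in RSeT+DT cells, 15.9 ± 0.11% in RSeT cells and 19.6 ± 0.19% in primed cells, and no group overlapped another on either measure. This order was not particular to the members. Group means of that share were 9.94%, 12.3% and 12.7% for mammalian-wide L1 and 24.5%, 27.1% and 32.75% for Alu. MLT1 had 2.29%, 2.67% and 3.06%, and hAT DNA transposons 2.87%, 3.32% and 3.92%. Ancient relatives outside the name rule had another order (0.6815%, 0.627% and 0.755%). Within the members' sum L2 took 3.76 ± 0.094%, 4.89 ± 0.13% and 5.36 ± 0.23% of all repeat counts in RSeT+DT, RSeT and primed cells, and MIR 4.11 ± 0.1%, 5.19 ± 0.065% and 5.82 ± 0.21%. L3 and CR1 together took 0.498 ± 0.015%, 0.61 ± 0.0048% and 0.677 ± 0.024%. The L4 and L5 entries took 0.1 ± 0.0067%, 0.138 ± 0.0016% and 0.1365 ± 0.0063%, with RSeT and primed libraries overlapping. AmnSINE took 0.0378 ± 0.0011%, 0.0406 ± 0.00022% and 0.0437 ± 0.0014% of all repeat counts. Of interspersed repeat counts it took 0.0613 ± 0.00066%, 0.0591 ± 0.00035% and 0.0705 ± 0.00012%. On that measure RSeT+DT stood above RSeT without overlap. The X LINE entries took 0.0783 ± 0.0018%, 0.0794 ± 0.00076% and 0.078 ± 0.0034% of all repeat counts, and their groups overlapped. Of interspersed repeat counts they took 0.127 ± 0.00053%, 0.1157 ± 0.0024% and 0.1258 ± 0.0017%, with RSeT below both other groups.

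**Figure D1:**
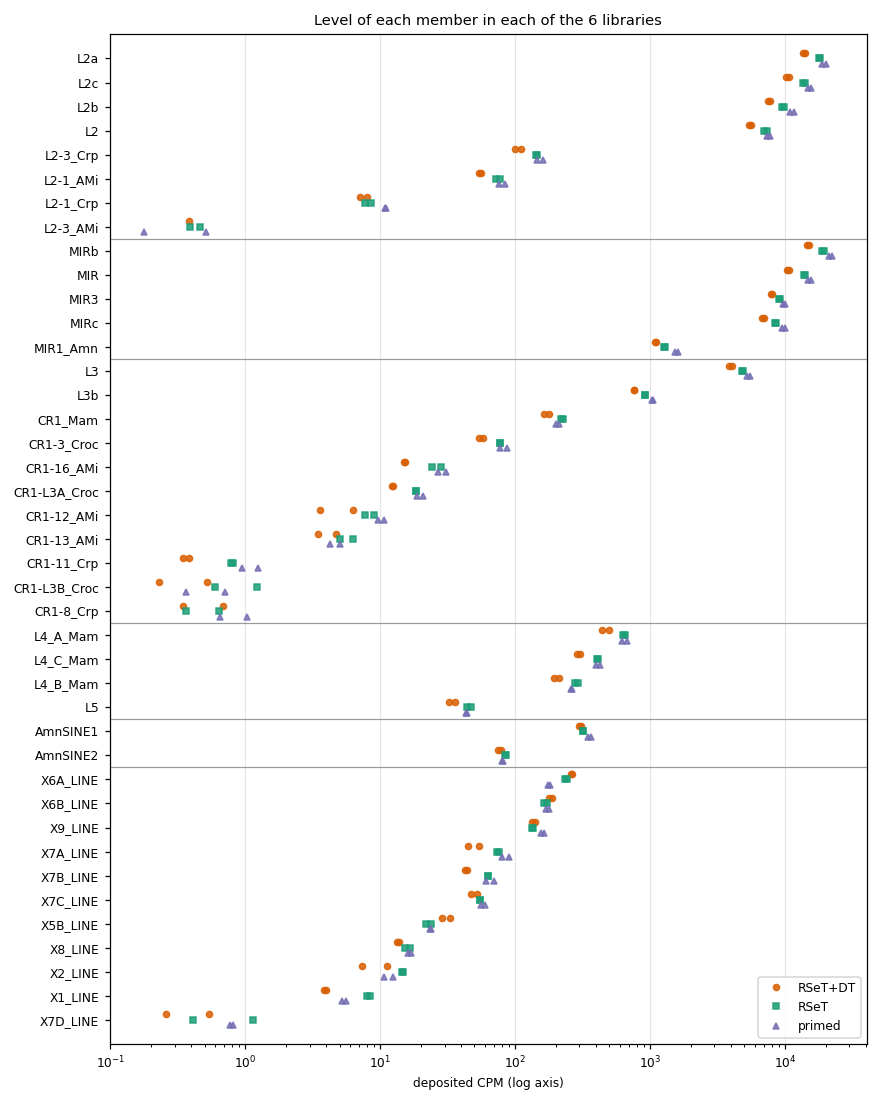
Deposited CPM (horizontal log axis) of each of the 41 members (rows, by family) in each of the 6 libraries, 1 point a library; a value of 0 is not drawn, which removes L2-3_AMi in RSeT+DT replicate 2. The 5 MIR entries and L2a, L2b and L2c step upward in the order RSeT+DT, RSeT and primed, X6A_LINE steps the other way, and X1_LINE has its 2 RSeT points at the high end.

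The first comparison asked what DZNep and TSA did to these families in RSeT cells. In CPM most members stood lower in RSeT+DT than in RSeT cells, among them nearly all L2 entries, the MIR core entries and all L4 and L5 entries, while a few X LINE entries, X5B_LINE first, stood higher. The size of that fall depended on the scaling, but the members' median lay near that of interspersed repeats with all 3 scalings used. With the TMM factors of edgeR, 4 of the 40 tested members were higher and 24 lower at an adjusted p under 0.05, where 25.1% of all 4665 tested features were higher and 17.4% lower. The median log2 fold change of the members was -0.24, against 0.03 over all features, most of them simple repeats, and -0.22 over the 1136 interspersed repeats, of which 5.63% were higher and 54.7% lower. When simple repeats, small RNA and ribosomal RNA were left out before scaling, called interspersed scaling here, log2 fold changes moved by 0.22 in the median, and 11 members were higher and 6 lower, beside 22.7% and 20.8% of 1151 features. Medians were then -0.024 for the members and -0.0023 for interspersed repeats. With library totals alone, 2 members were higher and 28 lower (5.0% and 70.0%), beside 16.9% and 24.8% of features. Of interspersed repeats, 2.2% were higher and 73.1% lower with library totals, with a median of -0.38 beside -0.4 for the members. In CPM, 3 tested members had both RSeT+DT libraries above both RSeT libraries and 33 had them below, where 28.9% and 41.9% of all features did so. All 3 scalings called the same 2 members higher, X5B_LINE and X6A_LINE, and the same 6 lower: X1_LINE, CR1-16_AMi, X7A_LINE, X7B_LINE, L4_B_Mam and L4_C_Mam.

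**Figure D2:**
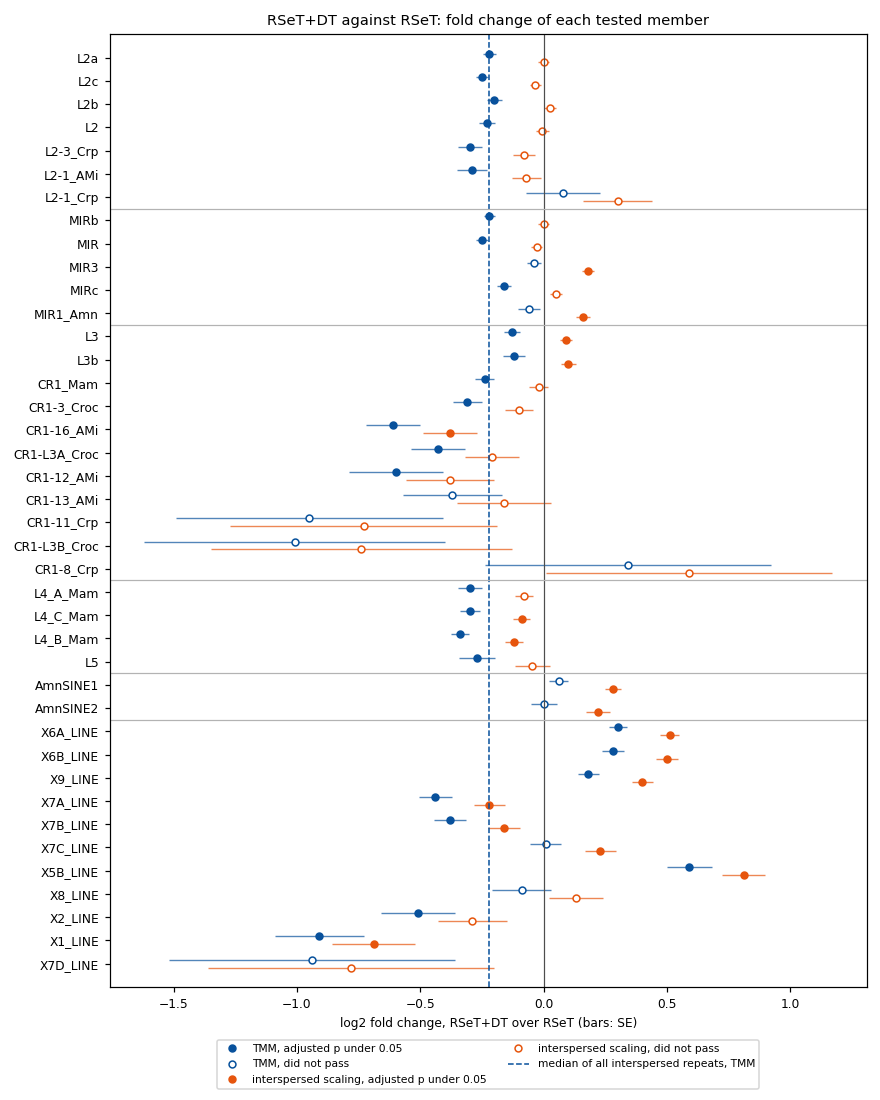
Log2 fold change (horizontal axis) of RSeT+DT over RSeT for each of the 40 tested members, with TMM (blue) and with interspersed scaling (orange); filled points have an adjusted p under 0.05 in edgeR, bars are SE, and the dashed line is the median of all interspersed repeats with TMM, -0.22. L2, L2a, L2b, L2c, MIR, MIRb and MIRc sit near the dashed line with TMM and near 0 with interspersed scaling. MIR3 lies near 0 with TMM and right of it with interspersed scaling. X5B_LINE, X6A_LINE and X6B_LINE lie right of 0 and X1_LINE left of it with both.

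Of the 7 tested L2 entries, 6 were lower in RSeT+DT than in RSeT cells with TMM. L2a, the L2 entry with the most counts, had 13646 and 14184 CPM in RSeT+DT libraries, 17721 and 18319.6 CPM in RSeT libraries and 18794 and 19961 CPM in primed libraries. L2c had 10156 and 10663 CPM, 13570.5 and 14032 CPM, and 14772 and 15589.7 CPM in the same order of groups. For both entries the RSeT+DT libraries lay below all the others. L2b had 7533 and 7681 CPM in RSeT+DT, 9500.0 and 9889 CPM in RSeT, and 10911 and 11639.8 CPM in primed libraries, and the entry named L2 had 5453 and 5578 CPM, 7001 and 7346 CPM, and 7307 and 7754 CPM. Only for the entry named L2 did RSeT and primed libraries overlap among these 4. In RSeT+DT against RSeT cells the TMM log2 fold changes were -0.22 (SE 0.025, adjusted p = 6.87e-08) for L2a, -0.25 (SE 0.026) for L2c, -0.20 (SE 0.029) for L2b and -0.23 (SE 0.032) for L2, and all 4 passed as lower. With interspersed scaling the 4 values were between -0.03 and 0.02 and none passed; L2a came to 0.00012 (SE 0.022, adjusted p = 0.998). Of the L2 entries with a crocodilian suffix, L2-3_Crp (-0.30, SE 0.048) and L2-1_AMi (-0.29, SE 0.061) passed as lower with TMM and not with interspersed scaling. L2-1_Crp, at 8.04 and 7.12 CPM in RSeT+DT and 7.67 and 8.49 CPM in RSeT libraries, overlapped between the groups (log2 fold change 0.08, adjusted p = 0.708). L2-3_AMi had 5 and 0 counts in RSeT+DT, 15 and 8 in RSeT and 3 and 7 in primed libraries and was too low to test.

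MIR entries are SINEs, and L2 is held to have mobilised most of them; with TMM, 3 of the 5 MIR entries had changes near those of L2 in RSeT+DT against RSeT cells and 2 lay nearer to 0. MIRb had 14434 and 15098 CPM in RSeT+DT, 18892 and 19342 CPM in RSeT, and 21111 and 22448 CPM in primed libraries. The entry named MIR had 10267 and 10752 CPM, 13780.4 and 13989.8 CPM, and 14901 and 15646 CPM, and MIRc had 6742 and 6934 CPM, 8473 and 8579 CPM, and 9555 and 10007 CPM. In these 3 entries the groups did not overlap and stood in the order RSeT+DT, RSeT, primed from low to high. MIR3, a separate MIR family, had 7899 and 7949.9 CPM in RSeT+DT, 9001 and 9132 CPM in RSeT, and 9639 and 10034 CPM in primed libraries. MIR1_Amn, whose consensus is shared by amniotes, had 1083 and 1102 CPM, 1259 and 1282 CPM, and 1519 and 1612 CPM. Their order was the same, with a smaller step between RSeT+DT and RSeT. With TMM, RSeT+DT against RSeT gave log2 fold changes of -0.22 (SE 0.024, adjusted p = 4.17e-08) for MIRb, -0.25 (SE 0.026) for MIR and -0.16 (SE 0.029) for MIRc, all lower past the threshold. For MIR3 it was -0.04 (SE 0.029, adjusted p = 0.275) and for MIR1_Amn -0.06 (SE 0.043, adjusted p = 0.245). MIR3 passed as lower without RSeT+DT replicate 1 (-0.05), with RLE factors, without a filter or in DESeq2 (-0.08 each), and at a mean count of at least 50 (-0.10). MIR1_Amn passed as lower in DESeq2 (-0.10) and at that mean count (-0.12). With library totals both were lower (-0.19 and -0.22). With interspersed scaling MIR (-0.03), MIRb (0.00041) and MIRc (0.05) did not pass. The entries that passed were MIR3 (0.18, SE 0.024, adjusted p = 1.62e-06) and MIR1_Amn (0.16, SE 0.028, adjusted p = 7.18e-05), both as higher.

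L3 and CR1 are related LINEs of the CR1 clade. L3 had 3863 and 4055 CPM in RSeT+DT, 4788 and 4861 CPM in RSeT, and 5227 and 5522 CPM in primed libraries, and L3b had 759 and 757 CPM, 919 and 914 CPM, and 1032 and 1059 CPM. No group overlapped another in either entry. The direction in RSeT+DT against RSeT cells turned with the scaling in both: with TMM, L3 was lower (-0.13, SE 0.033, adjusted p = 0.00214) and L3b was lower (-0.12, SE 0.044, adjusted p = 0.0297), and with interspersed scaling L3 was higher (0.09, SE 0.024, adjusted p = 0.00452) and L3b was higher (0.10, SE 0.03, adjusted p = 0.00929). L3b no longer passed with TMM without RSeT+DT replicate 2 (-0.08) or without replicate 1 or 2 of RSeT (-0.10 and -0.13). CR1_Mam, the mammalian CR1 consensus, had 163 and 177 CPM in RSeT+DT, 225 and 220.5 CPM in RSeT, and 199.9 and 213 CPM in primed libraries, so that RSeT stood highest. It was lower with TMM (-0.24, SE 0.04, adjusted p = 2.04e-05) and at -0.02 with interspersed scaling (adjusted p = 0.709).

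CR1 entries with a crocodilian suffix had far fewer counts and held the largest falls of this clade that passed. CR1-3_Croc had 54.3 and 57.6 CPM in RSeT+DT, 77.7 and 76.9 CPM in RSeT, and 77.4 and 86.6 CPM in primed libraries, and was lower in RSeT+DT than in RSeT with TMM (-0.31, SE 0.058) but did not pass with interspersed scaling (-0.10, adjusted p = 0.18). CR1-16_AMi had 15.3 and 15.1 CPM in RSeT+DT, 24.1 and 28.0 CPM in RSeT, and 30.8 and 26.8 CPM in primed libraries. It was the CR1 entry that passed as lower with TMM (-0.61, SE 0.11, adjusted p = 9.39e-05) and with interspersed scaling (-0.38, SE 0.11, adjusted p = 0.00663). CR1-12_AMi had 47 and 73 counts, or 3.6 and 6.34 CPM, in RSeT+DT libraries, 7.73 and 9.07 CPM in RSeT, and 9.56 and 10.6 CPM in primed libraries, and its 2 RSeT+DT libraries differed from each other almost as much as the groups did. It was lower with TMM (-0.60, SE 0.19, adjusted p = 0.013), and it did not pass without RSeT+DT replicate 1 (-0.24), without RSeT replicate 2 (-0.51) or with interspersed scaling (-0.38, adjusted p = 0.102). CR1-L3A_Croc, at 12.4 and 12.2 CPM in RSeT+DT and 18.5 and 18.3 CPM in RSeT libraries, was lower with TMM (-0.43, SE 0.11, adjusted p = 0.00322) and did not pass with interspersed scaling (-0.21, adjusted p = 0.125). The other 4 CR1 entries, CR1-13_AMi, CR1-11_Crp, CR1-L3B_Croc and CR1-8_Crp, had 63 to 567 counts over all libraries and did not pass in this comparison with either scaling.

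The 4 members placed with the RTE clade, L4_A_Mam, L4_B_Mam, L4_C_Mam and L5, were all lower in RSeT+DT than in RSeT cells with TMM. L4_A_Mam had 440.4 and 497 CPM in RSeT+DT, 635 and 650.2 CPM in RSeT, and 622 and 678.5 CPM in primed libraries. L4_C_Mam had 288 and 305 CPM, 411 and 402.5 CPM, and 397 and 423 CPM, and L4_B_Mam had 194 and 212 CPM, 279 and 292 CPM, and 259 and 265 CPM. L5 had 32.2 and 35.8 CPM in RSeT+DT, 44.1 and 47.1 CPM in RSeT, and 43.9 and 43.3 CPM in primed libraries. In all 4 the RSeT+DT libraries lay below the rest, and RSeT and primed libraries lay close together. TMM log2 fold changes of RSeT+DT against RSeT were -0.30 (SE 0.048) for L4_A_Mam, -0.30 (SE 0.041) for L4_C_Mam, -0.34 (SE 0.038, adjusted p = 5.52e-08) for L4_B_Mam and -0.27 (SE 0.074, adjusted p = 0.00505) for L5. With interspersed scaling L4_B_Mam (-0.12, SE 0.037, adjusted p = 0.0124) and L4_C_Mam (-0.09, SE 0.034, adjusted p = 0.0437) still passed as lower, and L4_A_Mam (-0.08, adjusted p = 0.0606) and L5 (-0.05, adjusted p = 0.638) did not. L5 also did not pass without RSeT+DT replicate 1 (-0.21) or without RSeT replicate 2 (-0.23).

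AmnSINE1 carries a head derived from 5S ribosomal RNA, and AmnSINE2 is a related amniote SINE. AmnSINE1 had 296 and 307 CPM in RSeT+DT, 319.7 and 321 CPM in RSeT, and 347 and 365 CPM in primed libraries, and AmnSINE2 had 74.4 and 78.9 CPM, 84.4 and 86.1 CPM, and 80.4 and 81.6 CPM. The RSeT+DT libraries lay lowest in both, by less than in L2. In RSeT+DT against RSeT cells AmnSINE1 gave 0.06 (SE 0.038, adjusted p = 0.184) and AmnSINE2 0.00069 (SE 0.053, adjusted p = 0.993) with TMM. Both were higher with interspersed scaling, at 0.28 (SE 0.033, adjusted p = 2.3e-07) and 0.22 (SE 0.05, adjusted p = 0.000928), whereas with library totals AmnSINE1 stood at -0.09 and AmnSINE2 was lower at -0.15.

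X LINE entries spread widest of all members, with 4 higher and 4 lower of 11 in RSeT+DT against RSeT cells with TMM. X5B_LINE had 28.6 and 33.0 CPM in RSeT+DT, 21.9 and 23.9 CPM in RSeT, and 23.3 and 23.9 CPM in primed libraries, so that both treated libraries stood above the 4 others. It was higher with TMM (0.59, SE 0.092, adjusted p = 8.41e-06), with interspersed scaling (0.81, SE 0.087) and with library totals (0.44). X6A_LINE had 259.7 and 266 CPM in RSeT+DT, 242 and 233 CPM in RSeT, and 176 and 182 CPM in primed libraries, which gave 3 separate levels. It was higher in RSeT+DT than in RSeT with all 3 scalings, at 0.30 (SE 0.036, adjusted p = 2.68e-07) with TMM, 0.51 with interspersed scaling and 0.14 with library totals. X6B_LINE had 188 and 179 CPM, 172 and 164 CPM, and 170.3 and 178 CPM, and was higher with TMM (0.28, SE 0.044) and interspersed scaling (0.50, SE 0.044) but did not pass with library totals (0.13). X9_LINE had 133 and 140.3 CPM in RSeT+DT, 133 and 135 CPM in RSeT, and 156 and 165 CPM in primed libraries; it overlapped between RSeT+DT and RSeT in CPM, was higher with TMM (0.18, SE 0.043, adjusted p = 0.00121) and interspersed scaling (0.40), and did not pass with library totals (0.03).

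Among the X LINE entries that were lower, X1_LINE had 3.98 and 3.82 CPM in RSeT+DT (52 and 44 counts), 7.99 and 8.44 CPM in RSeT (306 and 145 counts), and 5.23 and 5.58 CPM in primed libraries (88 and 76 counts). The RSeT libraries stood above both other groups, and the RSeT+DT libraries lay below primed. X1_LINE was lower in RSeT+DT than in RSeT with TMM (-0.91, SE 0.18, adjusted p = 0.000141), interspersed scaling (-0.69, SE 0.17, adjusted p = 0.00163) and library totals (-1.06). X7A_LINE had 45.1 and 53.7 CPM in RSeT+DT, 72.9 and 76.1 CPM in RSeT, and 79.6 and 90.3 CPM in primed libraries, and was lower with TMM (-0.44, SE 0.067, adjusted p = 5.98e-06) and interspersed scaling (-0.22, adjusted p = 0.00763). X7B_LINE, at 42.6 and 44.1 CPM in RSeT+DT and 62.8 and 63.1 CPM in RSeT libraries, was lower with TMM (-0.38, SE 0.066) and interspersed scaling (-0.16, adjusted p = 0.0425). X2_LINE had 7.35 and 11.3 CPM in RSeT+DT, 14.7 and 14.4 CPM in RSeT, and 10.8 and 12.5 CPM in primed libraries; it was lower with TMM (-0.51, SE 0.15, adjusted p = 0.00638) and did not pass with interspersed scaling (-0.29, adjusted p = 0.0971), without RSeT+DT replicate 1 (-0.23) or without RSeT replicate 1 (-0.48). X8_LINE, at 13.8 and 13.4 CPM in RSeT+DT, 16.5 and 15.4 CPM in RSeT, and 16.9 and 16 CPM in primed libraries, did not pass (-0.09, adjusted p = 0.585). X7C_LINE did not pass with TMM (0.01) and was higher with interspersed scaling (0.23, adjusted p = 0.00397), and X7D_LINE had 85 counts in all and did not pass.

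The second comparison set RSeT against primed cells, that is, the naive-like against the conventional state. Changes of the abundant L2, MIR and L3 entries were small, at most 0.17 log2 units with TMM, and for several the sign depended on the scaling, while X1_LINE, X6A_LINE, X2_LINE and L4_B_Mam were higher in RSeT cells with every scaling. With TMM, 10 of 40 members were higher and 3 lower, beside 22.8% and 23.8% of all features. The members' median was 0.04, against -0.03 over all features and 0.16 over interspersed repeats, of which 50.8% were higher and 8.01% lower. Interspersed scaling moved log2 fold changes by -0.16 in the median and called 4 members higher and 17 lower, beside 30.1% and 26.5% of features. Library totals called 4 higher and 12 lower, beside 14.6% and 32.9% of features and 29.1% and 16.8% of interspersed repeats. In CPM, 7 tested members were higher in RSeT and 20 lower without overlap, beside 24.4% and 49.2% of features. These 3 scalings called X1_LINE, X6A_LINE, X2_LINE and L4_B_Mam higher and L2b, MIR1_Amn and X9_LINE lower. The call for L2b was lost with RLE size factors (-0.06). The counts with TMM were not firm against single libraries: without RSeT replicate 1 or without primed replicate 1, 6 members were higher. Without RSeT replicate 1 or either primed library, 1 was lower. Without either RSeT+DT library, which enters only the shared spread and scaling, 5 were lower.

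**Figure D3:**
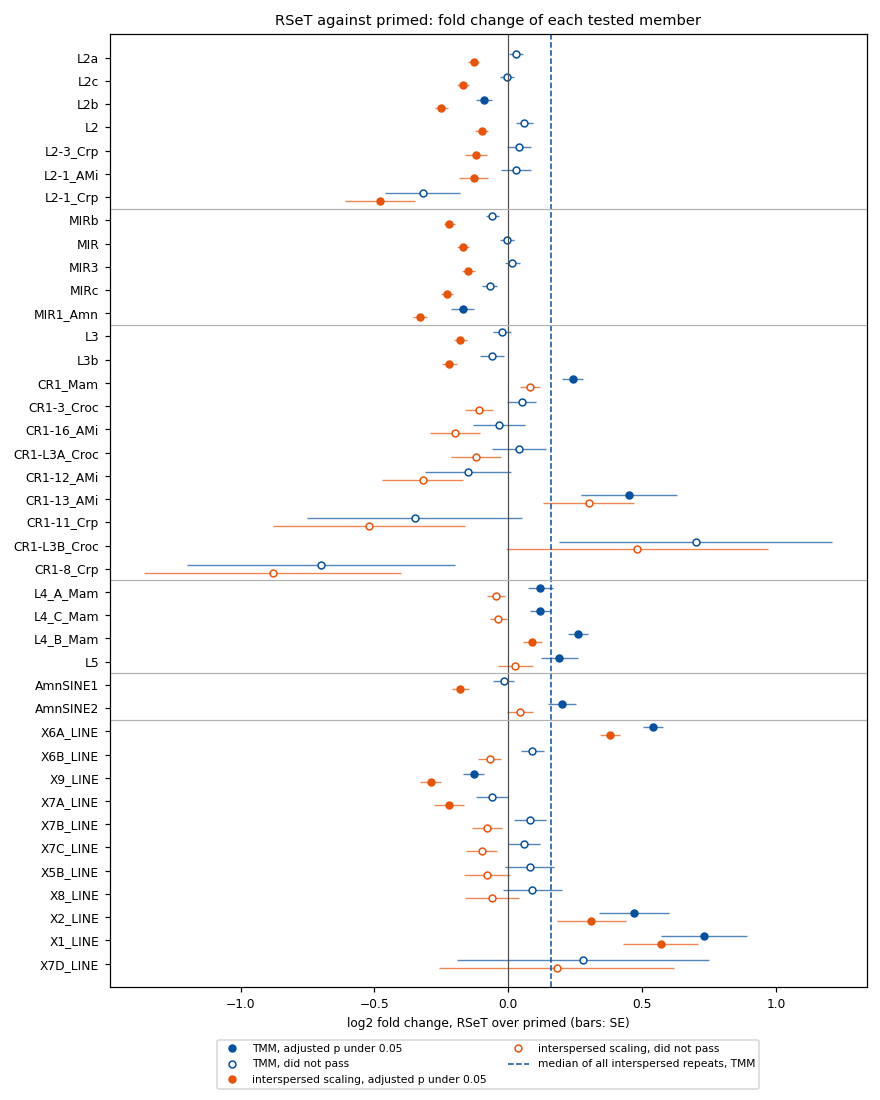
Log2 fold change (horizontal axis) of RSeT over primed for each of the 40 tested members, with TMM (blue) and with interspersed scaling (orange); filled points have an adjusted p under 0.05 in edgeR, bars are SE, and the dashed line is the median of all interspersed repeats with TMM, 0.16. The L2, MIR and L3 entries sit left of the dashed line with TMM and left of 0 with interspersed scaling, and X6A_LINE, X2_LINE and X1_LINE lie right of 0 with both.

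L2a averaged 18020.4 ± 423 CPM in RSeT and 19378 ± 825 CPM in primed cells (SD, n = 2 each). Its log2 fold change was 0.03 (SE 0.025, adjusted p = 0.371) with TMM and -0.13 (SE 0.022, adjusted p = 1.64e-05) with interspersed scaling. L2c gave -0.0047 with TMM and -0.17 with interspersed scaling, and the entry L2 0.06 and -0.10, so that these 3 passed, as lower, with interspersed scaling and did not pass with TMM. The entry L2 passed as higher with RLE factors (0.09), without a filter (0.08) and in DESeq2 (0.09). L2b, at 9694 ± 275 CPM in RSeT and 11275 ± 515 CPM in primed cells, was lower with both, at -0.09 (SE 0.029, adjusted p = 0.0195) and -0.25 (SE 0.024, adjusted p = 5.39e-09); with TMM this call was lost without RSeT replicate 1 (-0.06) or without replicate 1 or 2 of primed cells (-0.10 and -0.06), and also with RLE factors (-0.06), without a filter on low counts (-0.07) or in DESeq2 (-0.06). All 7 tested L2 entries were lower with interspersed scaling. MIRb (-0.06, adjusted p = 0.0612), MIRc (-0.07, adjusted p = 0.0643), MIR (-0.0048) and MIR3 (0.01) did not pass with TMM and were lower with interspersed scaling, at -0.22, -0.23, -0.17 and -0.15. MIR1_Amn averaged 1270.4 ± 16.3 CPM in RSeT and 1566 ± 65.4 CPM in primed cells and was lower with TMM (-0.17, SE 0.043, adjusted p = 0.00213) and with interspersed scaling (-0.33, SE 0.027).

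L3 (-0.02, adjusted p = 0.594) and L3b (-0.06, adjusted p = 0.292) did not pass with TMM and were lower with interspersed scaling, at -0.18 and -0.22. CR1_Mam averaged 223 ± 3.05 CPM in RSeT and 206 ± 9.1 CPM in primed cells, and was higher with TMM (0.24, SE 0.038, adjusted p = 9.05e-06) but did not pass with interspersed scaling (0.08, adjusted p = 0.0548) or library totals (0.11). CR1-3_Croc did not pass (0.05, adjusted p = 0.453), and CR1-13_AMi, which overlapped in CPM, was higher with TMM (0.45, SE 0.18, adjusted p = 0.0484) and not with interspersed scaling (0.30). Among L4 and L5 entries L4_B_Mam was higher with every scaling, at 286 ± 9.48 CPM in RSeT and 262 ± 4.28 CPM in primed cells, a log2 fold change of 0.26 (SE 0.036, adjusted p = 2.31e-06) with TMM, 0.09 (adjusted p = 0.0276) with interspersed scaling and 0.12 with library totals. L5 was higher with TMM (0.19, SE 0.069, adjusted p = 0.027) and not with interspersed scaling (0.03), and with TMM it did not pass without RSeT replicate 2 (0.17), without primed replicate 2 (0.16) or in DESeq2 (0.22).

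L4_A_Mam and L4_C_Mam overlapped between RSeT and primed libraries in CPM. Both were higher with TMM, at 0.12 (SE 0.047, adjusted p = 0.0452) and 0.12 (SE 0.04, adjusted p = 0.0149), and stood below 0 with interspersed scaling (-0.04 and -0.04) and library totals (-0.02 and -0.01). L4_A_Mam did not pass with TMM without replicate 1 or 2 of RSeT (0.13 and 0.12) or without primed replicate 1 (0.08), or at a mean count of at least 50 (0.09), and L4_C_Mam did not pass without RSeT replicate 1 (0.10) or primed replicate 1 (0.10). AmnSINE2, at 85.3 ± 1.19 CPM in RSeT and 81.0 ± 0.878 CPM in primed cells, was higher with TMM (0.20, SE 0.051, adjusted p = 0.0018) and did not pass with interspersed scaling (0.04) or library totals (0.07). AmnSINE1 stood at -0.02 with TMM (adjusted p = 0.725) and was lower with interspersed scaling (-0.18).

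X6A_LINE averaged 238 ± 6.64 CPM in RSeT and 179 ± 4.08 CPM in primed cells, a log2 fold change of 0.54 (SE 0.037, adjusted p = 4.12e-12) with TMM, 0.38 (SE 0.037) with interspersed scaling and 0.41 with library totals. X1_LINE, at 8.21 ± 0.317 CPM in RSeT and 5.4 ± 0.248 CPM in primed cells, was higher at 0.73 (SE 0.16, adjusted p = 0.000427), 0.57 and 0.60 with the same scalings. X2_LINE was higher at 0.47 (SE 0.13, adjusted p = 0.00569), 0.31 and 0.34, and with TMM it did not pass without RSeT replicate 1 (0.45) or primed replicate 1 (0.39). X9_LINE, at 134 ± 1.33 CPM in RSeT and 161 ± 5.88 CPM in primed cells, was lower at -0.13 (SE 0.041, adjusted p = 0.013), -0.29 and -0.26, and with TMM it did not pass without any 1 of the 4 libraries compared (-0.11 to -0.14), without a filter (-0.11) or in DESeq2 (-0.10). X5B_LINE (0.08, adjusted p = 0.508), X8_LINE (0.09, adjusted p = 0.494) and X7A_LINE (-0.06, adjusted p = 0.454) did not pass with TMM.

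The third comparison, RSeT+DT against primed cells, shares its libraries with the other 2 comparisons and gives the net of medium and drugs together. Here the direction of most members did not depend on the scaling. L2, L2a, L2b, L2c, MIR, MIRb, MIRc, MIR1_Amn, L3, L3b and 6 of the 11 tested crocodilian-suffix entries were lower in RSeT+DT cells. X6A_LINE and X5B_LINE were higher, and MIR3 did not pass with TMM or interspersed scaling. With TMM, 4 of 40 members were higher and 20 lower, beside 25.1% and 20.6% of all features, with a median of -0.19 against -0.0089 over all features and -0.07 over interspersed repeats. Of interspersed repeats, 24.4% were higher and 34.3% lower. Interspersed scaling moved log2 fold changes by 0.06 in the median and called 6 higher and 21 lower, beside 32.3% and 29.6% of features. Library totals called 2 higher and 29 lower, beside 13.1% and 38.3% of features and 10.5% and 61.1% of interspersed repeats. In CPM, 3 tested members were higher and 33 lower without overlap, beside 20.2% and 54.5% of features. The 20 members that were lower with TMM were lower with the other 2 scalings too.

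These 20 comprised L2a, L2b, L2c, L2, L2-3_Crp, L2-1_AMi, MIRb, MIR, MIRc, MIR1_Amn, L3, L3b, L4_A_Mam, L4_C_Mam, 4 CR1 entries (CR1-3_Croc, CR1-16_AMi, CR1-L3A_Croc and CR1-12_AMi), X7A_LINE and X7B_LINE. L2a averaged 13915 ± 381 CPM in RSeT+DT and 19378 ± 825 CPM in primed cells, a log2 fold change of -0.19 (SE 0.025, adjusted p = 5.39e-07) with TMM and -0.13 (SE 0.022) with interspersed scaling. MIRb averaged 14766 ± 470.0 CPM in RSeT+DT and 21779.7 ± 945 CPM in primed cells and gave -0.27 (SE 0.024, adjusted p = 5.92e-10) and -0.22 (SE 0.022). L3 gave -0.16 (SE 0.033) and -0.10, and L4_A_Mam -0.19 (SE 0.048, adjusted p = 0.00236) and -0.13, but L4_A_Mam did not pass with TMM without RSeT+DT replicate 1 (-0.11). The largest falls were those of CR1-12_AMi (-0.75, SE 0.2, adjusted p = 0.00273), CR1-16_AMi (-0.64, SE 0.12, adjusted p = 7.27e-05), X7A_LINE (-0.50, SE 0.068, adjusted p = 1.46e-06), CR1-L3A_Croc (-0.39, SE 0.12, adjusted p = 0.00909) and X7B_LINE (-0.30, SE 0.068, adjusted p = 0.000698), all with TMM. CR1-12_AMi did not pass without RSeT+DT replicate 1 (-0.40), and CR1-L3A_Croc did not pass without RSeT+DT replicate 2 (-0.33) or primed replicate 2 (-0.33).

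MIR3 kept apart from the other MIR entries in this comparison as well, at -0.03 (SE 0.029, adjusted p = 0.496) with TMM and 0.03 with interspersed scaling. With library totals MIR3 was lower (-0.31), as it was at a mean count of at least 50 (-0.11). X6A_LINE was higher at 0.84 (SE 0.038, adjusted p = 1.18e-15) with TMM, 0.90 (SE 0.039) with interspersed scaling and 0.55 with library totals. X5B_LINE was higher at 0.67 (SE 0.097, adjusted p = 3.15e-06), 0.73 and 0.38. X6B_LINE was higher at 0.37 (SE 0.045, adjusted p = 2.34e-07) and 0.43 but did not pass with library totals (0.08). AmnSINE2 was higher with TMM (0.21, SE 0.055, adjusted p = 0.00343) and interspersed scaling (0.26), although its CPM was lower, at 76.7 ± 3.18 in RSeT+DT and 81.0 ± 0.878 in primed cells, and library totals gave -0.08. At a mean count of at least 50 it did not pass (0.13). CR1_Mam (0.0066), L4_B_Mam (-0.08), L5 (-0.08), AmnSINE1 (0.05), X1_LINE (-0.18), X2_LINE (-0.04), X8_LINE (0.0077) and X9_LINE (0.05) did not pass with TMM. Of these, CR1_Mam (-0.28), L4_B_Mam (-0.37), L5 (-0.36), AmnSINE1 (-0.24) and X9_LINE (-0.23) were lower with library totals. AmnSINE1 (0.11) and X9_LINE (0.11) were higher with interspersed scaling.

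A ratio of counts inside 1 library does not depend on how libraries are scaled, so members were also set against the summed L2 counts of the same library. MIR came to 109.4 and 109.3 counts per 100 L2 counts in RSeT+DT, 107.1 and 105.0 in RSeT, and 109.1 and 108.2 in primed libraries, so the SINE and its LINE partner kept nearly the same proportion in all 6. MIR3 stood at 21.4 and 20.8 per 100 in RSeT+DT, 18.7 and 18.3 in RSeT, and 18.5 and 18.2 in primed libraries, with RSeT+DT above the rest. MIR1_Amn stood at 2.93 and 2.88 in RSeT+DT, 2.62 and 2.57 in RSeT, and 2.92 and 2.92 in primed libraries, with RSeT below the rest. L3 and CR1 together came to 13.2 ± 0.068 per 100 in RSeT+DT cells, 12.5 ± 0.23 in RSeT cells and 12.6 ± 0.077 in primed cells (SD, n = 2 each).

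Per 1000 L2 counts, the L4 and L5 entries gave 26.6 ± 1.1 in RSeT+DT cells, 28.2 ± 0.4 in RSeT cells and 25.5 ± 0.1 in primed cells, with RSeT highest and no overlap. AmnSINE gave 10.05 ± 0.048 in RSeT+DT cells, 8.3 ± 0.17 in RSeT cells and 8.15 ± 0.088 in primed cells, where RSeT and primed libraries overlapped and RSeT+DT stood above both. X LINE entries gave 20.8 ± 0.037 in RSeT+DT cells, 16.25 ± 0.58 in RSeT cells and 14.5 ± 0.017 in primed cells, in 3 separate steps. X6A_LINE carried much of this, with 7.03 and 6.94 in RSeT+DT, 5.05 and 4.68 in RSeT, and 3.39 and 3.3 in primed libraries, and X6B_LINE added 5.1 and 4.67, 3.58 and 3.3, and 3.27 and 3.22. X5B_LINE stood at 0.775 and 0.862 in RSeT+DT, 0.456 and 0.479 in RSeT, and 0.448 and 0.432 in primed libraries. X1_LINE peaked in RSeT, with 0.108 and 0.0998 in RSeT+DT, 0.166 and 0.169 in RSeT, and 0.101 and 0.101 in primed libraries, and CR1_Mam had 4.405 and 4.63 in RSeT+DT, 4.68 and 4.43 in RSeT, and 3.84 and 3.85 in primed libraries, where RSeT+DT and RSeT overlapped above primed. Such ratios show unequal change and not which of the parts changed, and with 2 libraries against 2 an exact permutation test cannot go below p = 0.333, so they were not tested.

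**Figure D4:**
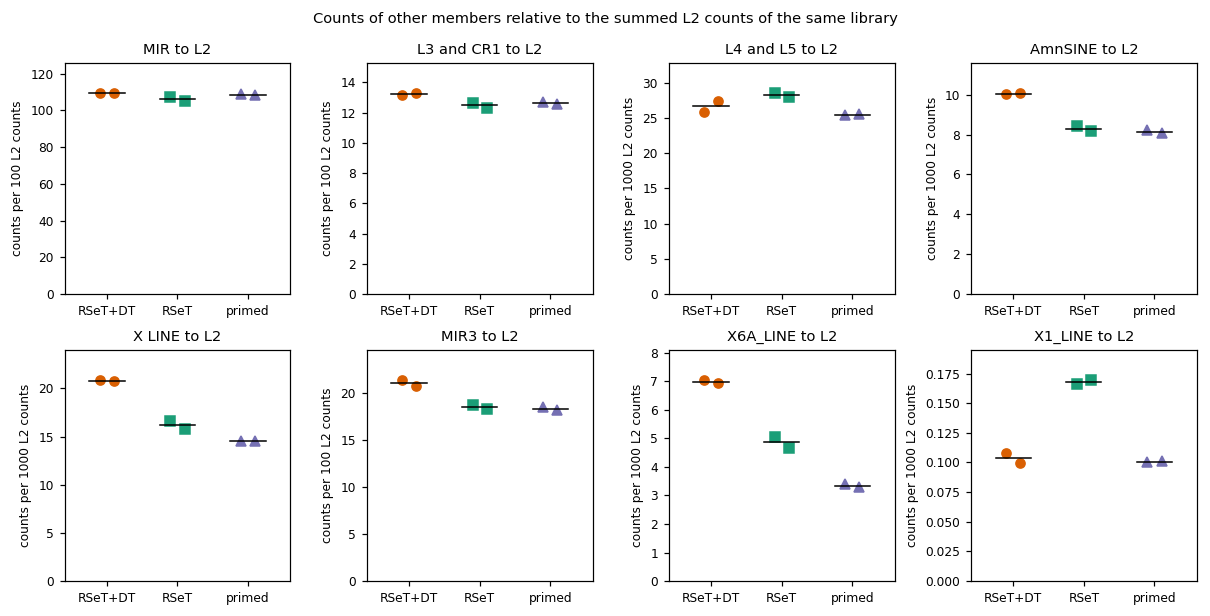
Counts of other families or single entries per 100 or per 1000 summed L2 counts (vertical axes, from 0) in each of the 6 libraries; points are libraries and horizontal lines are group means. MIR lies between 105.0 and 109.4 in every library, X6A_LINE steps down from RSeT+DT through RSeT to primed, and X1_LINE is highest in RSeT.

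Other repeat families, taken by name and including the younger, primate-specific Alu, gave the following counts with TMM in RSeT+DT against RSeT cells. Of 92 mammalian-wide L1 entries 3 were higher and 81 lower (median -0.36), of 51 Alu entries 4 and 28 (median -0.14), of 56 MLT1 entries, LTRs of an old ERVL-like family, 1 and 42 (median -0.24), and of 70 hAT DNA transposon entries 2 and 55 (median -0.25). The members had 4 and 24 of 40, with a median of -0.24. Their share of lower calls (60.0%) and their median lay among those of the 4 lists. Their share of higher calls (10.0%), all of them X LINE entries, lay above all 4, at 3.26%, 7.84%, 1.79% and 2.86% in the same order. It lay below the 25.1% of all tested features and above the 5.63% of interspersed repeats. Of the 5 ancient relatives outside the name rule, 60.0% were higher. With interspersed scaling the L1 entries had 9 higher and 66 lower (median -0.14), the Alu entries 26 and 0 (median 0.08), MLT1 7 and 5 of 55 (median -0.02) and hAT 11 and 19 (median -0.03), where the members had 11 and 6 (median -0.02). In RSeT against primed cells with TMM, L1 entries had 75 higher and 1 lower (median 0.24), Alu 17 and 1 (median 0.07), MLT1 23 and 3 (median 0.11) and hAT 24 and 5 (median 0.08), where the members had 10 and 3 (median 0.04). With interspersed scaling these were 44 and 13, 9 and 29, 8 and 21, and 7 and 33, and the members had 4 and 17. Differences between these lists were not tested.

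Of the ancient relatives that the name rule leaves out, 5 were listed, and 3 of them were higher in RSeT+DT than in RSeT cells with TMM. Penelope1_Vert, from a Penelope-like element, had 331 and 318 CPM in RSeT+DT, 286 and 280.1 CPM in RSeT, and 277 and 287 CPM in primed libraries, and was higher in RSeT+DT than in RSeT with TMM (0.35, SE 0.039, adjusted p = 6.97e-08) and interspersed scaling (0.57). MamRTE1, a mammalian LINE of the RTE clade, had 2292 and 2257 CPM, 2266 and 2238 CPM, and 2402 and 2431 CPM, and overlapped between RSeT+DT and RSeT in CPM; it was higher with TMM (0.17, SE 0.04, adjusted p = 0.00131) and interspersed scaling (0.39), unlike the 4 L4 and L5 entries. LFSINE_Vert, a SINE first known from the coelacanth, was higher at 0.14 (adjusted p = 0.0156) and 0.36. Plat_L3, a CR1-clade relative of L3, had 224 and 239.5 CPM in RSeT+DT, 304.5 and 303 CPM in RSeT, and 364 and 381 CPM in primed libraries, and was lower with TMM (-0.24, SE 0.037, adjusted p = 9.14e-06) and not with interspersed scaling (-0.02). MamSINE1 did not pass with TMM (-0.07, adjusted p = 0.239) and was higher with interspersed scaling (0.15).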

How the data were processed

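Total RNA of H9 cells was sequenced in 6 libraries after a stranded library preparation, per the labels' protocols. The authors deposited a table of raw counts per repeat entry, not normalized, and a CPM table; the deposited CPM equals counts scaled to CPM by the summed counts of the listed entries within 0.00442, and lists entries with a total of at least 10 counts. Trimmomatic 0.39, STAR 2.7.8a, featureCounts and Subread 2.14.2 and the build GRCh38 (hg38) are named in the submitters' processing notes; the repeat annotation and the handling of multi-mapping reads and of strand were not given in any source used here. Reads of related entries can be shared, so neighbouring entries (L2a, L2b, L2c; MIR, MIRb, MIRc) are not independent. Counts were tested with the edgeR 4.0.16 quasi-likelihood test (R 4.3.3; TMM; filterByExpr with 10 and 15 counts; all 6 libraries in 1 fit, group as the only term; 3 residual degrees of freedom; a common biological coefficient of variation of 5.49%), adjusted by Benjamini-Hochberg over 4665 features at 0.05, and the procedure was tested on simulated counts. The simulated counts held as many rises as falls, of the same sizes, so they could not test the effect of unequal shifts between repeat classes. SE is the size of the log2 fold change over the square root of F. Alternatives were RLE factors, library totals, interspersed scaling, no filter, mean counts from 50 up, DESeq2 1.42.0, limma 3.58.1 on log2 of deposited CPM with pseudocounts 1 and 0.1, a replicate block, fits of the compared groups alone, and each library left out. Replicates differed by more than counting noise over the members (chi-square per degree of freedom 4.52, 5.93 and 2.38 in RSeT+DT, RSeT and primed cells). Members and lists were chosen with earlier results of these data known. Entries named with values in every library are anchors picked by name and, per comparison, up to 5 largest rises and 5 largest falls that pass, with mean counts from 50 up and groups apart in CPM; L2-3_Crp, L2-1_AMi, L2-1_Crp, L2-3_AMi, CR1-13_AMi, X7C_LINE and the entries with the fewest counts were named after their values were seen. Gene-level values and genome coordinates were not used here.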

Additional observations from a re-analysis of the deposited data

How the results depend on the processing

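Each named entry was refitted under each alternative that keeps all libraries, which gave 290, 250 and 300 values for RSeT+DT against RSeT, RSeT against primed and RSeT+DT against primed. Of these, 252, 179 and 266 kept their side of the threshold, where a value that passed neither time was counted whatever its sign. Another 9, 11 and 14 changed sign, and these were counted apart even where the call was also lost or gained. Of the remaining values, 15, 23 and 4 no longer passed, and 14, 37 and 16 passed where the reported value did not. For RSeT+DT against RSeT, 2 members were higher with library totals and with limma at either pseudocount, and interspersed scaling gave 11 higher and 6 lower; signs turned with interspersed scaling for L2a (0.00012), L2b (0.024), MIRb (0.00041), MIR3 (0.18), MIRc (0.05), MIR1_Amn (0.16), L3 (0.09) and L3b (0.1), and with library totals for AmnSINE2 (-0.15). Of these, L2a, L2b, MIRb and MIRc no longer passed with interspersed scaling. For RSeT against primed, 4 were higher with library totals or interspersed scaling and 2 with limma; 12 were lower with library totals, 17 with interspersed scaling, 9 with limma, 6 at a mean count of at least 50, 1 without a filter or with DESeq2, and 5 with only the groups compared. Leaving out 1 library gave 6 to 13 higher and 1 to 5 lower. Signs turned with interspersed scaling for L2a (-0.13), L2 (-0.1), MIR3 (-0.15), L4_A_Mam (-0.045) and L4_C_Mam (-0.038), and for the last 2 also with library totals (-0.016, -0.011) and limma (-0.015, -0.011). For RSeT+DT against primed, 2 were higher with library totals or limma and 31 lower with limma; signs turned with library totals for CR1_Mam (-0.28), AmnSINE1 (-0.24), AmnSINE2 (-0.08) and X9_LINE (-0.23), with limma at the same values, and for X8_LINE with limma at pseudocount 1 (-0.26) or 0.1 (-0.27). A sign change was counted only where at least 1 of the 2 values passed. MIR per 100 L2 counts was 106.9, 103.9 and 106.2 in RSeT+DT, RSeT and primed cells over the core entries alone. These are MIR, MIRb, MIRc and MIR3 against L2, L2a, L2b and L2c. With the replicate block, 5 members were lower in RSeT against primed, and no other count of members moved by over 1.5 times. Over all tested features, differences between replicates 1 and 2 were nearly uncorrelated between groups (correlations 0.0219, -0.0419 and 0.0375). The members' share of all repeat counts was nevertheless higher in replicate 2 than in replicate 1 in each group. These values cannot settle whether the replicate numbers mark a pairing. The scaling shift of 0.22 and -0.16 is built into interspersed scaling; other causes were not tested. Entries under 100 counts in all could not show changes of the sizes seen in L2.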
